A study of Mus musculus with 15 samples.

Results

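The genes described here code for the MYC, MAX and MXD network of transcription factors, followed here in regulatory T cells (Treg cells), which restrain immune responses. The 8 genes Myc, Mycn, Max, Mxd1, Mxd4, Mxi1, Mnt and Mlx were taken by symbol, were all listed in the deposited tables, and were among the 29989 genes tested of 30949 listed for every library. The cells were sorted as CD25+ CD39+ T cells (gated on CD4 or on CD3; the labels give both) from the lymph nodes and spleen of C57BL/6 females that carried floxed Dock8 on both alleles and a YFP-Cre fusion in Foxp3 on 1 of their X chromosomes (Foxp3YFP-Cre/+ Dock8flox/flox). Because a female cell silences 1 X chromosome, YFP+ cells with Cre (DOCK8 deficient, called KO here) and YFP- cells without Cre (called WT) can be sorted from the same kind of animal, and the WT cells carry the floxed alleles too. DOCK8 is a guanine nucleotide exchange factor that acts on the actin cytoskeleton. The cells were cultured for 16 h without beads (4 WT and 6 KO libraries) or with beads coated with antibodies to CD3 and CD28, with 1 bead per cell (3 WT and 2 KO libraries). These antibodies act on the T cell receptor complex and on a costimulatory receptor. RNA was measured by Smart-Seq2, which copies polyadenylated RNA from few cells, and the values are TPM, a level scaled for transcript length and library total, so that genes can be compared within a library. Libraries are named by the number in their title, and the 1 WT and 1 KO library without a number are called unnumbered; the design text calls the samples of every group but KO with beads independent, without saying whether they came from separate animals, so p-values measure the spread between these libraries, which may be technical.

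MYC and its relative MYCN are transcription factors of the basic helix-loop-helix leucine zipper class that bind DNA only as dimers with MAX, above all at the E-box CACGTG, and favour genes for ribosome production, nucleotide synthesis and growth. MXD1, MXD4, MXI1 and MNT also pair with MAX, compete for the same sites and recruit SIN3 and histone deacetylases, so they hold such genes down, while MLX pairs with several MXD proteins and with the glucose-responsive factors MondoA and ChREBP. In T cells, receptor stimulation is known to raise MYC, which is needed for the growth and the change in metabolism that precede division. The deposited tables measure RNA of whole samples, so fewer cells that express a gene and less RNA per cell cannot be told apart.

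As a check of the labels, Dock8 lay at 14.6 ± 5.35 TPM in WT (SD, n = 4) and 8.58 ± 1.85 in KO (SD, n = 6) without beads, with overlapping ranges (exact two-sided permutation p = 0.0190). On the log2(TPM + 1) scale its difference was -0.67. The median of that comparison was -0.11 over all genes and -0.44 over 5937 genes that averaged 20 TPM or more in some group. With beads the WT libraries had 8.71, 10.1 and 8.91 TPM of Dock8, and the KO libraries 7.90 and 5.82 TPM. A level summed over the gene also counts exons outside a deleted stretch, and KO libraries kept Dock8 signal. Foxp3, which defines Treg cells, was present in all 15 libraries, from 6.29 to 26.0 TPM in KO and 29.3 to 51.6 TPM in WT without beads, and at 42.2 and 42.7 TPM in KO and 88.6 to 106 TPM in WT with beads. The summed level of the 9 Treg cell markers ranged from 353 to 956 TPM without beads and from 1481 to 1590 TPM with beads, which includes Il2ra, a gene that stimulation raises. The 6 markers of CD8 T and NK cells summed to 27.6 to 67.5 TPM without beads and 15.5 to 37.6 TPM with beads, the 6 B cell markers to at most 33.8 and 19.7 TPM, and the 7 erythroid and stromal markers to 38.1 to 70.6 and 15.8 to 34.0 TPM; no marker of these lists was at 0 throughout a group, and of the 8 myeloid markers S100a9 alone was at 0, in both KO libraries with beads. The 55 predicted genes that average 1000 TPM or more held 31.9% ± 8.66 (SD, n = 4) of TPM in WT and 44.2% ± 8.43 (SD, n = 6) in KO without beads, against 14.2% ± 2.42 (SD, n = 3) and 19.2% ± 4.29 (SD, n = 2) with beads. Because TPM sum to a fixed total, this share moves with both comparisons; its part in the differences between levels was not tested beyond the rescaled values given below, while ratios of genes within a library do not depend on it.

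All 8 genes are protein coding in the GENCODE vM21 annotation of GRCm38 (mm10). Myc lies at chr15:61985391-61990374 on the plus strand, Mycn at chr12:12936093-12941914 and Max at chr12:76937269-76962201 on the minus strand, Mxd1 at chr6:86647042-86669161 and Mxd4 at chr5:34173883-34187720 on the minus strand, and Mxi1 at chr19:53310518-53375810, Mnt at chr11:74830920-74845725 and Mlx at chr11:101087277-101092207 on the plus strand. Exons of Mlx share 385 bases with the proteasome-interacting gene Psmc3ip, those of Mxd4 514 bases with the predicted gene Gm42846, and those of Mxi1 194 bases with Gm10197, all on the opposite strand. Whether strand was used in the quantification is not given in the sources used here, so reads in those stretches may not be told apart. RefSeq promoters (GRCm38.p6) were found for 7 of the 8 genes, 9 promoters in all, and the 250 bases before each annotated start were searched for CACGTG, which reads the same on both strands. It was present once each before Mxd4, Mlx and Mnt and in 6.02% of all 32851 promoters searched in the same way, and the variant CACGCG (either strand) was in none of the 9 and in 7.62% of all. The stretches outside the annotated transcripts are shown for the 3 members other than Myc that passed a test below, Mxd4 (chr5:34187721-34187960, minus strand), Mlx (chr11:101087040-101087276, plus strand) and Mxd1 (chr6:86669162-86669409, minus strand), 5′ to 3′, with CACGTG in capitals.
Mxd4: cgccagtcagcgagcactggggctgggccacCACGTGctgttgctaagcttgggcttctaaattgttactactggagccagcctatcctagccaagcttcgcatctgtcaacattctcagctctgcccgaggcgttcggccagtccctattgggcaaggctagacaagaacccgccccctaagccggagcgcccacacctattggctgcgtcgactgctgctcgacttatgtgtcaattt
Mlx: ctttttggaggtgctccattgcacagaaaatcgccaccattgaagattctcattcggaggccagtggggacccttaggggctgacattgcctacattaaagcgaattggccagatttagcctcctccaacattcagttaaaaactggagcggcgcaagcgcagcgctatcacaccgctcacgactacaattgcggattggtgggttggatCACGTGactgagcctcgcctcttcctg
Mxd1: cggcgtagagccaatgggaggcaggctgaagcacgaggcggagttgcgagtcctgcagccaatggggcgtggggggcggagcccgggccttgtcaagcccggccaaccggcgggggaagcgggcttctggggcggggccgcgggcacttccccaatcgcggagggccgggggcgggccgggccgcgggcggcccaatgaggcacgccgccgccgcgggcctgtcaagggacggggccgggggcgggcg
The E-box begins at position -219 from the annotated start of Mxd4 and at -40 from that of Mlx, and the stretch before Mxd1 holds none. A match of letters is a description and not a binding site, and no binding was measured in these samples.

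Without beads, Myc RNA was below that of Max and of the repressor Mxd4, and by mean above Mxi1 and Mnt. The WT libraries (unnumbered, 1, 2 and 3) had 3.93, 8.93, 3.05 and 9.36 TPM of Myc, and the KO libraries (unnumbered and 1 to 5) had 7.85, 1.57, 2.79, 5.63, 3.75 and 3.85 TPM. Max, the shared partner, was higher, with 14.8, 12.5, 9.34 and 15.6 TPM for WT and, in the same order of libraries, 13.5, 10.0, 5.90, 5.79, 5.14 and 10.7 TPM for KO. Max exceeded Myc in 10 of 10 libraries, by 1.40 to 3.78 times in WT and 1.03 to 6.39 times in KO. The member at the highest mean level was Mxd4 in WT (25.3 ± 9.66 TPM, SD, n = 4) and Mlx in KO (18.5 ± 9.46 TPM, SD, n = 6). These neighbours in the order of levels did not separate: Mxd4 was above Mlx in 3 of 4 WT libraries, and Mlx above Mxd4 in 5 of 6 KO libraries. Mxi1, Mnt and Mycn came last in both genotypes.

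With beads the order turned over. Myc rose to 140, 179 and 168 TPM (WT libraries 1, 2 and 3) and to 128 and 158 TPM (KO libraries 4 and 5), so that every bead library lay far above every library without beads. The ratio of mean TPM was 25.7 in WT and 33.7 in KO. On the log2(TPM + 1) scale, on which all differences below are given, Myc rose by 4.59 (SE 0.43) in WT, with an adjusted p of 6.16e-05 from limma, and by 4.88 (SE 0.46) in KO, with an adjusted p of 4.23e-05. By p it ranked 7 in WT and 14 in KO of the 29989 genes. Its share of the summed TPM of the 8 members went from 7.93% ± 2.66 (SD, n = 4) to 62.4% ± 4.19 (SD, n = 3) in WT and from 7.68% ± 2.57 (SD, n = 6) to 59.0% ± 0.136 (SD, n = 2) in KO. Of the 8 members, 2 were called with beads in WT (Myc higher, Mxd4 lower), beside 11.2% of all genes tested, and 3 in KO (Myc, Mxd1 and Mlx, all higher), beside 8.11% of all genes. Among the 5937 genes that averaged 20 TPM or more in some group, the called share was 35.6% in WT and 32.6% in KO. The ranges with and without beads did not overlap for 6 members in WT (29.5% of all genes) and 5 in KO (22.6%), which were Myc, Max, Mxd1, Mxi1 and Mlx in both and Mxd4 in WT.

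**Figure D1:**
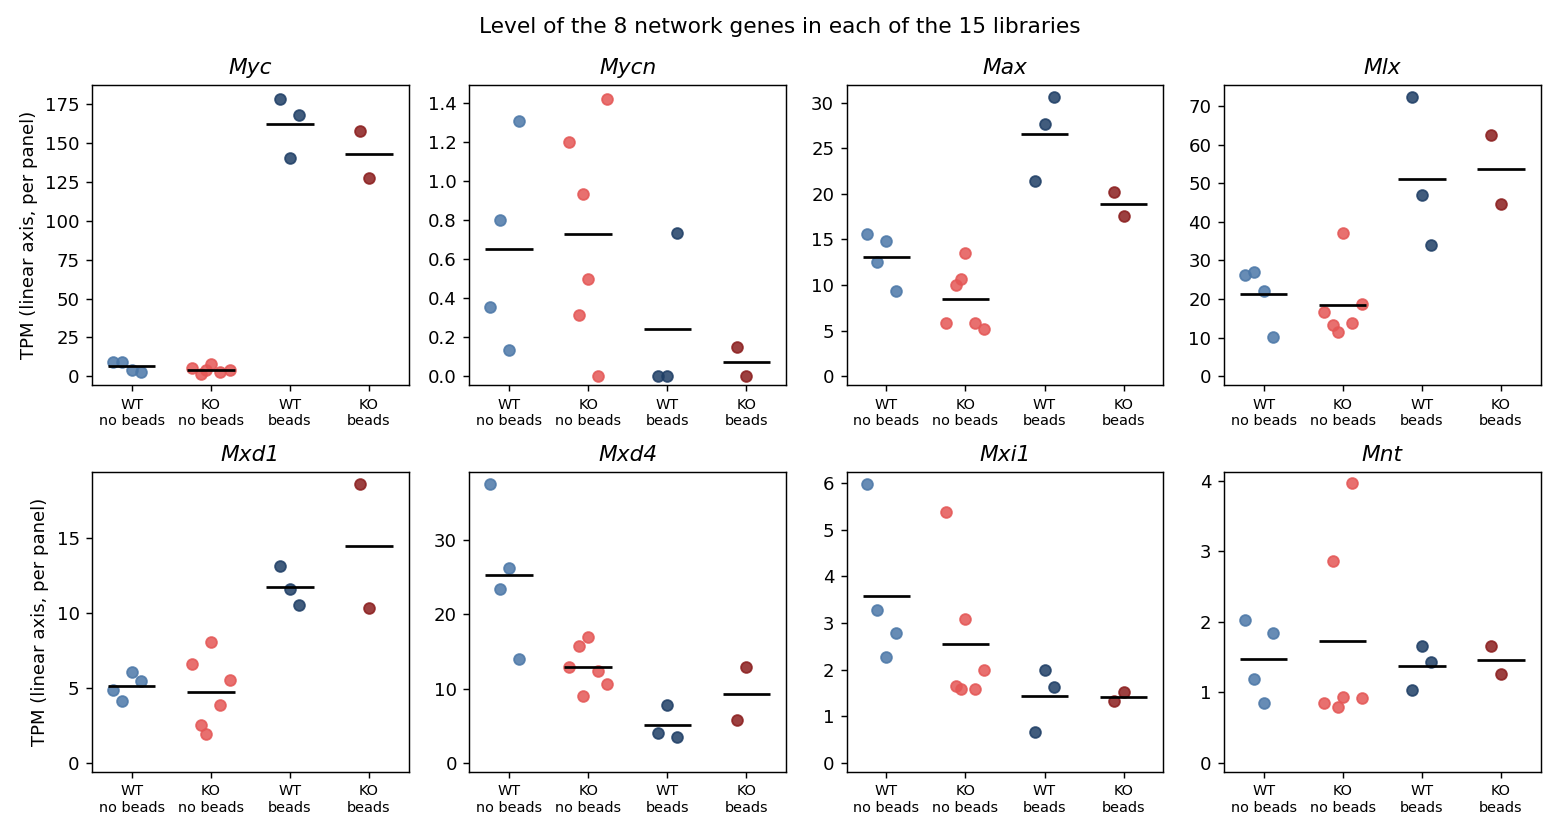
Level of each of the 8 network genes in TPM (linear axis, a scale of its own in each panel) in WT and KO Treg cells cultured for 16 h without beads (n = 4 and 6) or with beads (n = 3 and 2); a point is 1 library and a line the group mean. Myc sits at 128 TPM or more in all 5 bead libraries and below 10 TPM in the other 10, while Mxd4 is lowest in WT with beads.

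MYCN, the paralog with the same partner, stayed near the floor. Without beads Mycn lay between 0.14 and 1.31 TPM for WT and between 0 and 1.42 TPM for KO. It was listed at 0 in 3 of the 5 bead libraries, with 0.73 and 0.15 TPM in the other two. With levels this near 0, no fold is given for Mycn.

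Max was higher with beads in every library, with 27.7, 21.4 and 30.7 TPM for WT and 17.6 and 20.2 TPM for KO, but did not pass the test. The difference was 0.98 in WT (SE 0.35, 95% interval 0.24 to 1.72, adjusted p = 0.0842, limma) and 1.14 in KO (SE 0.37, 95% interval 0.35 to 1.93, adjusted p = 0.0773). In both genotypes the groups did not overlap, and the exact permutation p was the smallest the design allows (0.0286 and 0.0357, two-sided). Myc exceeded Max in 5 of 5 bead libraries, by 5.06 to 8.33 times in WT and by 7.25 and 7.84 times in KO, where before Max had exceeded Myc.

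Among the repressors that pair with MAX, Mxd4 was called lower in WT and Mxd1 was called higher in KO. Neither was called for the difference between the bead responses of KO and WT. Mxd4 fell in WT from 26.2, 23.4, 14.0 and 37.4 TPM (unnumbered, 1, 2 and 3) to 7.80, 3.98 and 3.45 TPM with beads (1, 2 and 3), a ratio of means of 0.201. The groups did not overlap, and Mxd4 fell by 2.10 (SE 0.39, adjusted p = 0.00369, limma). In KO, Mxd4 started lower, at 16.9, 15.7, 12.3, 12.9, 10.6 and 9.01 TPM, and was at 12.8 and 5.76 TPM with beads. KO replicate 4 with beads lay inside the range without beads and replicate 5 below it, and the difference was -0.50 (SE 0.42, 95% interval -1.39 to 0.39, adjusted p = 0.545). That value rests on replicate 5: without it the difference was 0.02.

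Mxd1, known as a MYC antagonist of differentiating cells, had 6.05, 4.16, 5.50 and 4.88 TPM without beads in the WT libraries, and 8.07, 2.55, 3.85, 6.58, 5.54 and 1.92 TPM in the KO ones. With beads it reached 11.6, 13.2 and 10.5 TPM (WT) and 10.4 and 18.6 TPM (KO), above every library without beads. Mxd1 rose in KO by 1.49 (SE 0.43, adjusted p = 0.0452, limma), while the difference of 1.06 in WT (SE 0.40) had an adjusted p of 0.106. The KO value is just inside the threshold: leaving out any 1 of 13 of the 15 libraries put the adjusted p above 0.05, up to 0.457 without KO replicate 5 with beads, and only without the unnumbered KO library or KO replicate 3, both without beads, was Mxd1 still called. The difference kept its sign each time, between 1.09 and 1.88.

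Within libraries the leading repressor changed. Mxd4 made up 69.9% ± 7.98 (SD, n = 4) of the summed TPM of Mxd1, Mxd4, Mxi1 and Mnt in WT without beads and 25.1% ± 7.62 (SD, n = 3) with beads, and Mxd1 15.6% ± 5.65 and 60.7% ± 9.81. In KO the share of Mxd4 was 59.6% ± 7.33 (SD, n = 6) without beads and 49.5% and 21.1% in the bead libraries (4 and 5), and that of Mxd1 11.2% to 29.0% and then 39.9% and 68.0%. Mxd4 was above Mxd1 in 10 of 10 libraries without beads, and Mxd1 above Mxd4 in 4 of 5 with beads, the exception being KO replicate 4. Mxi1 and Mnt made up the rest. Mxi1 spanned 2.28 to 5.98 TPM (WT) and 1.58 to 5.38 TPM (KO) without beads, and 0.67 to 2.00 and 1.32 to 1.51 TPM with beads. Its differences were -0.90 in WT (SE 0.42, adjusted p = 0.193) and -0.47 in KO (SE 0.45, adjusted p = 0.606). Mnt, which is found in most cell types, stayed between 0.80 and 3.97 TPM in all 15 libraries, with its highest values in KO replicates 1 and 2 without beads (2.86 and 3.97 TPM).

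The sum of the 4 repressors changed less than its makeup. Without beads it spanned 24.1 to 50.3 TPM (WT) and 13.3 to 29.0 TPM (KO), and with beads 17.0 to 23.1 and 26.0 to 27.3 TPM. Set against that sum, Myc went from a ratio of 0.176 ± 0.0758 (SD, n = 4) to 8.47 ± 2.08 (SD, n = 3) in WT and from 0.195 ± 0.0843 (SD, n = 6) to 4.92 and 5.78 in the 2 KO libraries. Hence the repressors together exceeded Myc in 10 of 10 libraries without beads and in 0 of 5 with beads. With beads both KO ratios lay below the WT ratios of 6.08, 9.47 and 9.86, with 2 libraries against 3.

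**Figure D2:**
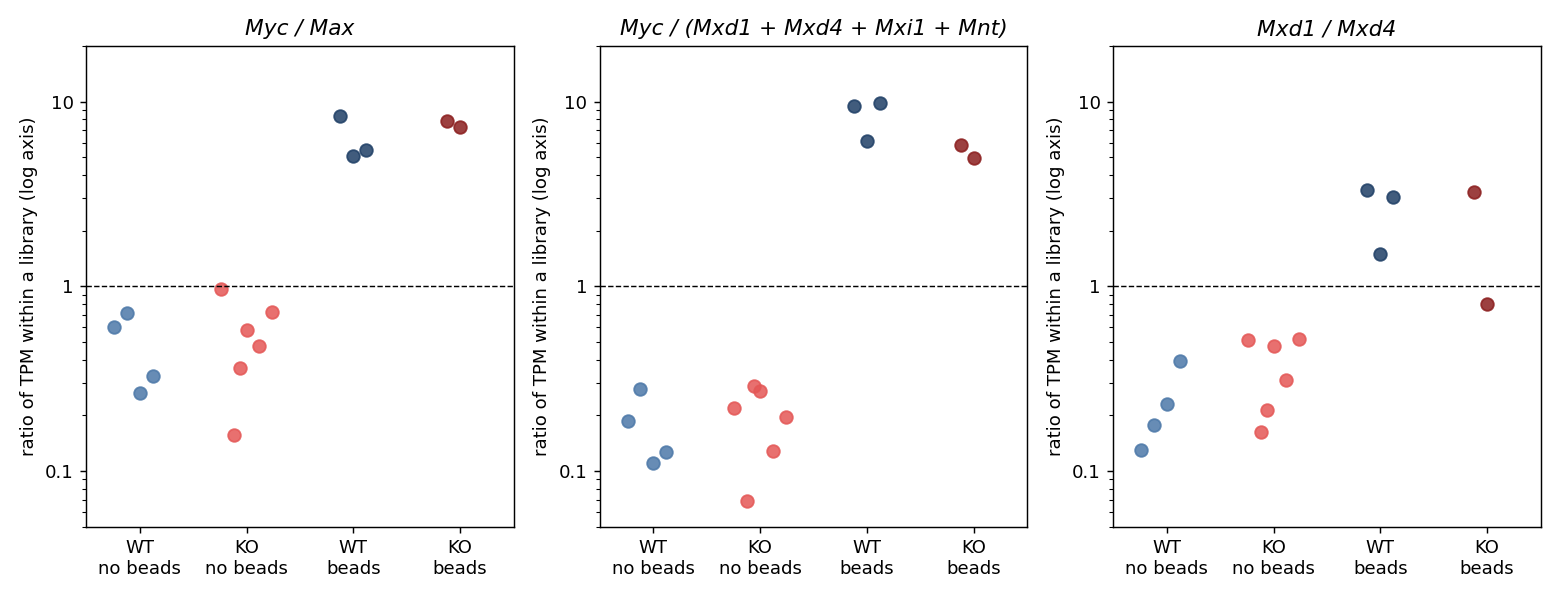
Ratios of TPM within each library (log axes, 1 point per library, dashed line at equal levels) for Myc against Max, Myc against the sum of 4 MAX-binding repressors, and Mxd1 against Mxd4, by genotype and treatment. The first and second ratio are below 1 in all 10 libraries without beads and above 1 in all 5 with beads; the third crosses 1 in all bead libraries but KO replicate 4.

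Mlx, the partner shared with MondoA and ChREBP, was the second most abundant member with beads. Without beads the WT libraries had 22.1, 26.9, 10.1 and 26.2 TPM, and the KO libraries 37.1, 13.3, 13.9, 16.8, 18.8 and 11.4 TPM. With beads the values were 47.0, 72.3 and 34.0 TPM (WT) and 44.7 and 62.5 TPM (KO). The groups did not overlap in either genotype. Mlx rose in KO by 1.57 (SE 0.46, adjusted p = 0.0454, limma), and the difference of 1.24 in WT (SE 0.43) had an adjusted p of 0.0738. The KO call was lost without any 1 of 12 of the 15 libraries, with an adjusted p of up to 0.379 without KO replicate 5 with beads, and was kept without WT replicate 2 or 3 or the unnumbered KO library, all without beads. Without the unnumbered KO library the WT difference had an adjusted p of 0.0431. Mlx was above Max in 10 of 10 libraries without beads and in 5 of 5 with them.

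**Figure D3:**
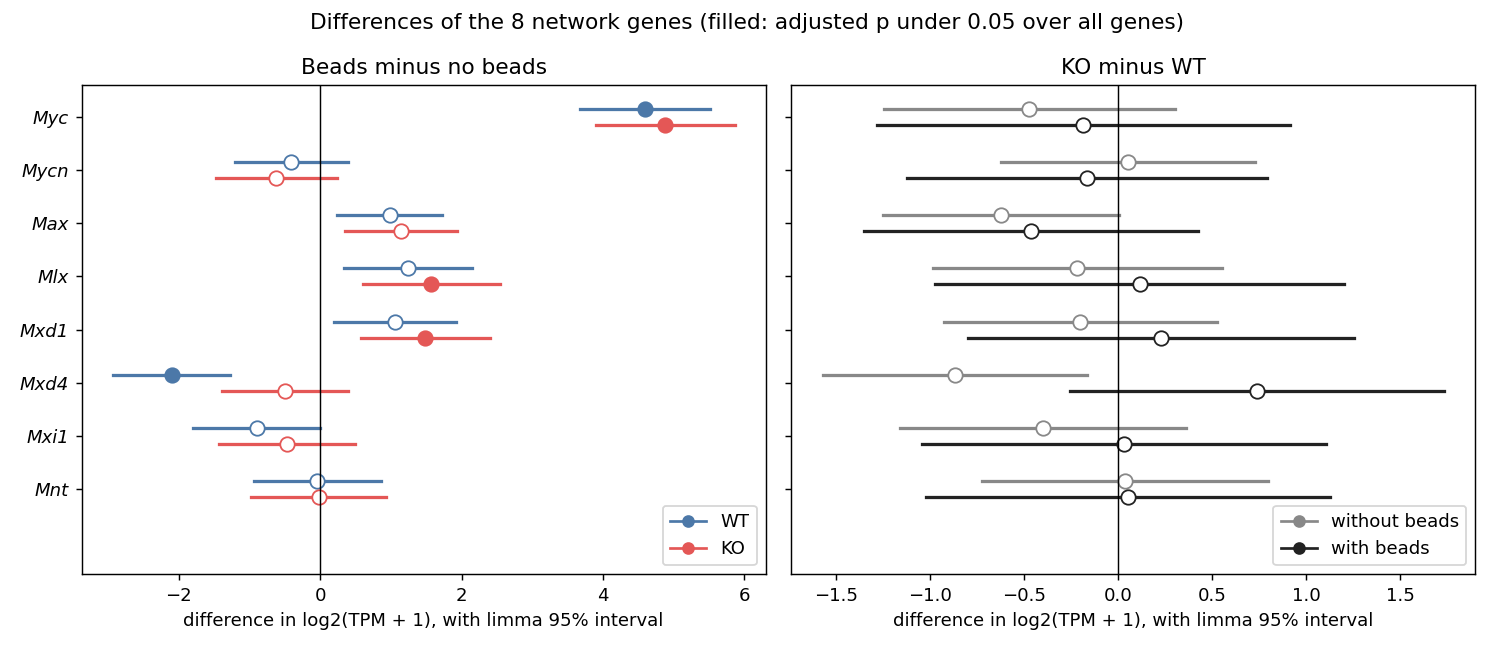
Differences in log2(TPM + 1) of the 8 genes with 95% intervals from limma, for beads minus no beads (WT and KO) and for KO minus WT (without and with beads); filled points passed an adjusted p of 0.05 over all genes. Myc in both genotypes, Mxd4 in WT, and Mxd1 and Mlx in KO are filled, and no point is filled for KO minus WT.

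Between KO and WT cells none of the 8 genes had a called difference. KO cells also differ from WT cells in Cre and in the YFP-Cre fusion in Foxp3. Neither can be told apart from the loss of DOCK8 here. Without beads 0 of 8 passed limma's adjusted threshold (0.0734% of all genes did), 1 had an unadjusted p under 0.05 by limma and 1 by the exact permutation test, in both cases Mxd4. Mxd4 averaged 25.3 TPM in WT and 12.9 ± 2.99 TPM in KO (SD, n = 6), and 4 of the 6 KO libraries lay below the lowest WT library. The difference was -0.87 (SE 0.33, 95% interval -1.57 to -0.16, adjusted p = 0.343, limma; exact two-sided permutation p = 0.0143). Max differed by -0.62 (SE 0.29, 95% interval -1.25 to 0.01, adjusted p = 0.448) and Myc by -0.47 (SE 0.36, 95% interval -1.25 to 0.30, adjusted p = 0.682). The median difference of all genes was -0.11, and that of the 5937 genes that averaged 20 TPM or more in some group was -0.44. Treg cell markers were lower in the same libraries: 0 of 9 were called (limma), and 6 had an unadjusted p under 0.05, all lower in KO. Of all genes tested, 3386 of 29989 had an unadjusted p under 0.05 by limma. Without the unnumbered KO library 3 of the 9 markers were called, beside 0.225% of all genes. The part of Treg cell markers in these differences was not tested. After scaling to abundant genes Mxd4 differed by -0.51, Max by -0.28 and Myc by -0.17.

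With beads, 0 of 8 passed (0.00333% of all genes) and 0 had an unadjusted p under 0.05. Max was the 1 member whose libraries did not overlap (25.5% of all genes), lower in both KO libraries than in the 3 WT libraries, and its difference of -0.46 (SE 0.42, 95% interval -1.35 to 0.43, adjusted p = 1.00) had an exact permutation p of 0.2, where 0.1 is the smallest possible. Mxd4 differed by 0.74 (SE 0.47, 95% interval -0.26 to 1.73, adjusted p = 1.00), a value that was 0.22 without KO replicate 4 and 1.26 without KO replicate 5, and Myc 0.18 lower with a wide interval of -1.28 to 0.91. The difference between the bead responses was called in 0 of 8 members (0.00333% of all genes), with 1 unadjusted p under 0.05. That was Mxd4, whose difference with beads was less negative in KO than in WT, by 1.60 (SE 0.57, 95% interval 0.39 to 2.82, unadjusted p = 0.0132, adjusted p = 0.999), rank 318 of 29989 genes. For Myc the responses differed by 0.29 (95% interval -1.05 to 1.63), so neither a weaker nor a stronger rise in KO was detectable. Scaling turned this value for Myc to -0.16 or -0.12, and kept that of Mxd4 positive at 1.09 or more under every alternative fitted.

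The other genes of the network were not called in either bead response, 0 of 5 (limma, with 0 at an unadjusted p under 0.05 in WT and 0 in KO), with a negative difference for 4 of them in WT and 3 in KO. Mycl, a further MYC paralog, averaged 2.75 TPM in WT without beads and 0.54 with beads (difference -1.19, adjusted p = 0.209), and Mlxipl, which codes for ChREBP, 12.7 and 3.87 TPM (difference -1.26, adjusted p = 0.217). In KO, Mlxipl averaged 11.4 and 3.58 TPM (difference -1.19, adjusted p = 0.331) and Mxd3, a repressor linked to dividing cells, 2.61 and 5.50 TPM (difference 1.08, adjusted p = 0.448).

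Genes that MYC is known to activate in nucleoli and in biosynthesis rose almost as a block. With beads 48 of 54 were called higher in WT and 45 in KO, all 45 of them among the 48, and 0 were called lower; of all genes tested 4.6% were called higher in WT and 5.95% in KO, and 6.63% and 2.15% lower. The median difference of the 54 was 2.69 in WT and 3.00 in KO, beside -0.44 and -0.23 over all genes, and 0.19 and 0.74 over the 5937 abundant ones. Nop58, a core protein of box C/D small nucleolar ribonucleoproteins, went from 44.7 to 383 TPM in WT (difference 3.08, SE 0.28, adjusted p = 6.16e-05) and from 35.4 to 336 TPM in KO (3.24, SE 0.30, adjusted p = 3.67e-05). The mitochondrial chaperonin Hspd1 rose from 24.7 to 347 TPM in WT and from 14.7 to 260 TPM in KO. The nucleolar genes Gnl3 (nucleostemin, 5.39 to 72.7 TPM) and Npm1 (nucleophosmin, 286 to 2290 TPM) followed by p in WT, and Ppan (4.77 to 105 TPM) and Nop2 (1.99 to 47.7 TPM), which act in ribosome assembly, in KO. Each of these genes was called higher in both genotypes. The 6 not called in either genotype were Polr1b, Rrp9, Slc7a5, Slc2a1, Hk2 and Tert, and Ddx18, Cad and Mthfd2 were called in WT alone (adjusted p in KO of 0.0887, 0.0529 and 0.136); those 9 were named after their values were seen. The summed level of the 54 genes spanned 1097 to 1793 TPM (WT) and 728 to 1335 TPM (KO) without beads, and 10343 to 12674 and 7592 to 9283 TPM with beads. The count in KO fell to 28 without KO replicate 5 with beads.

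**Figure D4:**
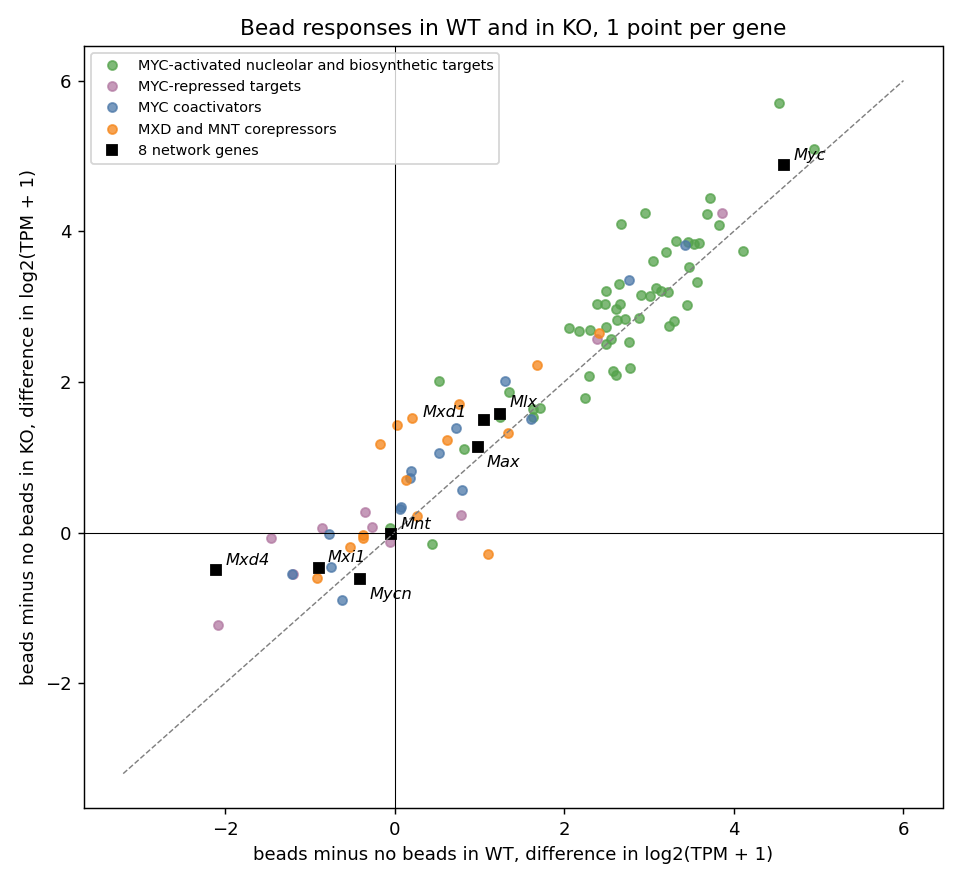
Difference in log2(TPM + 1) between culture with and without beads in WT (x axis) and in KO (y axis), 1 point per gene, for the 8 network genes (black squares) and 4 gene lists; the dashed line marks equal differences. The MYC-activated genes (green) have medians of 2.69 and 3.00, below Myc itself at 4.59 and 4.88, and a few of them, such as Tert at -0.05 and 0.06, lie near 0; Mxd4 lies to the left of the line.

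Between genotypes none of the 54 targets was called, in either condition. Without beads 15 had an unadjusted p under 0.05, all lower in KO, the median difference was -0.52, and 43 of 54 were negative. The median was -0.11 over all genes and -0.44 over the 5937 abundant ones. Nop2 came nearest, at 1.99 TPM in KO and 9.23 TPM in WT (difference -1.79, SE 0.32, adjusted p = 0.0596, limma), and without KO replicate 3 without beads 1 target was called lower. Over all genes 3386 of 29989 had an unadjusted p under 0.05. With beads 0 of the 54 had an unadjusted p under 0.05, and 47 of 54 were negative, with a median of -0.35. The median of all genes was 0.13 and that of the 5937 abundant ones -0.00018. The 2 smallest p there belonged to Hspe1 (347 TPM in KO, 568 in WT) and Pcna (103 and 148 TPM). Over 26 alternatives the median of the 54 targets ranged from -0.67 to -0.20 without beads and from -0.63 to -0.14 with beads.

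**Figure D5:**
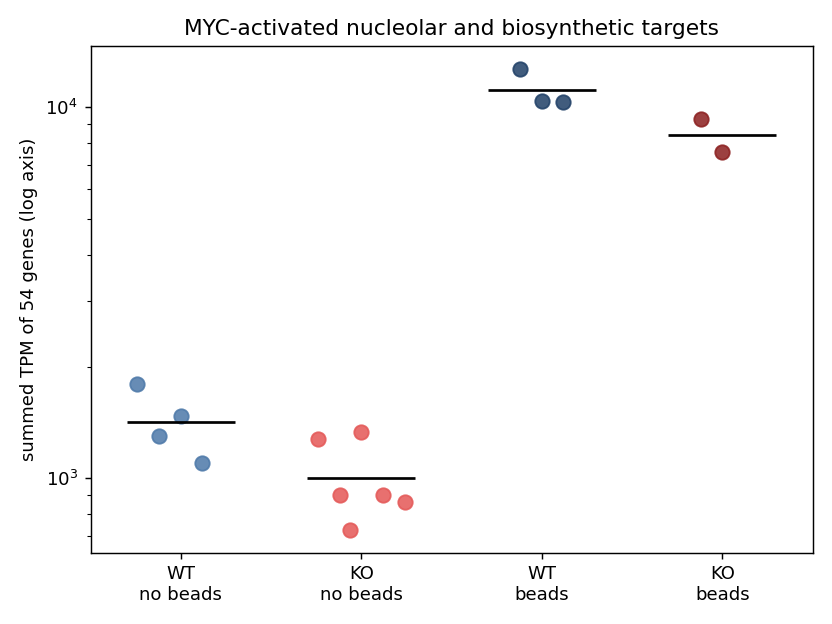
Summed TPM of the 54 MYC-activated nucleolar and biosynthetic genes in each library (log axis; a point is 1 library, a line the group mean), by genotype and treatment. The 5 bead libraries lie at 7592 TPM or more and the 10 others at 1793 TPM or less, and both KO bead libraries lie below the 3 WT ones. Of all single genes tested, 25.5% did not overlap between KO and WT with beads.

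Cofactors were more mixed. Of 15 coactivators of MYC, 3 rose and 1 fell in WT and 5 rose in KO. Over all genes tested 11.2% were called in WT and 8.11% in KO, and over the 5937 abundant ones 35.6% and 32.6%. Ruvbl1 and Ruvbl2, the paired ATPases of chromatin remodelling complexes, went from 17.1 to 121 TPM and from 10.5 to 121 TPM in WT, and from 7.86 to 88.0 TPM and from 7.65 to 96.0 TPM in KO. The acetyltransferase gene Kat2a rose in both (2.52 to 9.65 TPM in WT, 1.90 to 6.93 TPM in KO), the scaffold Trrap fell in WT from 31.9 to 13.8 TPM (difference -1.20, SE 0.29, adjusted p = 0.0138), and Smarcb1, a subunit of SWI/SNF remodellers, rose in KO from 9.17 to 38.2 TPM. Of 15 corepressor genes used by MXD and MNT, 3 rose in each genotype, 2 of them in both. These were Rbbp7 (39.7 to 214 TPM in WT, 30.1 to 169 TPM in KO), which binds histones, and the scaffold Sin3b (31.4 to 97.1 and 23.1 to 97.7 TPM), with Rbbp4 in WT (23.1 to 58.1 TPM) and Brms1 in KO (8.91 to 25.8 TPM). The fall of Trrap was lost under median-ratio scaling and without WT replicate 3 with beads. Corepressor calls in WT fell from 3 to 1 without replicate 1 or 2 without beads or any WT bead library. The counts in KO fell most without its own bead libraries: without replicate 4 or 5 with beads, 2 or 1 coactivators and 1 or 0 corepressors were called. Without the unnumbered WT library, KO replicate 1, 2, 4 or 5 without beads, or any WT bead library, 3 coactivators were called in KO.

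Of 15 genes that set the stability of MYC protein, 1 rose and 2 fell in WT, and 2 rose in KO. The called share in WT and KO was 11.2% and 8.11% of all genes, and 35.6% and 32.6% of the 5937 abundant ones. Ppp2r5a, a regulatory subunit of the phosphatase PP2A, fell in WT from 107 to 43.5 TPM (difference -1.29, SE 0.25, adjusted p = 0.00444), as did Gsk3b, the kinase that marks MYC for degradation (17.0 to 8.53 TPM, adjusted p = 0.0484). Stub1, a ubiquitin ligase, rose in KO by 1.77 (SE 0.37, adjusted p = 0.00788) to 51.6 TPM. Both falls were lost under median-ratio scaling, and 1 of them without WT replicate 1 or 2 without beads, the unnumbered KO library, KO replicate 1, 4 or 5 without beads, or any bead library. Without KO replicate 4 or 5 with beads, 1 or 0 of these genes were called in KO.

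Genes that MYC is known to repress did not move as a group. Of the 10 tested, 2 rose and 3 fell in WT and 2 rose in KO. Over all genes 4.6% were called higher and 6.63% lower in WT, and 5.95% and 2.15% in KO. Cdkn1b, a cell cycle inhibitor, fell in WT from 28.1 to 5.54 TPM (difference -2.08, SE 0.42, adjusted p = 0.00584), and Btg2, which restrains division, from 54.2 to 22.5 TPM. The inhibitor gene Cdkn1a rose in WT from 5.49 to 52.7 TPM and in KO from 2.65 to 54.8 TPM, and the stress gene Gadd45b from 8.45 to 49.3 and from 5.78 to 30.4 TPM. Both KO calls were lost without either KO bead library, and in WT 1 or 2 of the 3 lower calls were left without the unnumbered library, replicate 1 or replicate 3 without beads, or any bead library, and 1 was left under median-ratio scaling. Of 5 genes taken here as targets of MLX and MondoA, 1 was called in WT. Txnip, which limits glucose uptake, fell in WT from 32.7 to 10.2 TPM (difference -1.51, SE 0.43, adjusted p = 0.0364, limma). The call was lost without any 1 of 6 WT libraries (unnumbered, 1 or 3 without beads, or any with beads) and under median-ratio scaling. In KO 0 of 5 were called (limma), with 3 at an unadjusted p under 0.05. Without KO replicate 4 without beads, 1 was called lower in KO. In KO the 2 smallest p belonged to G6pc3 (6.72 to 19.9 TPM, adjusted p = 0.110) and Pklr (8.55 TPM to a listed 0, adjusted p = 0.143).

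Genes known to respond to T cell stimulation rose in both genotypes, 11 of 12 in WT and 12 of 12 in KO, where 4.6% and 5.95% of all genes were called higher. The summed level of the 12 genes spanned 239 to 410 TPM (WT) and 149 to 305 TPM (KO) without beads, and 2495 to 2907 and 2578 to 2749 TPM with beads. Irf4, which is induced with the strength of receptor signals, rose from 1.14 to 92.1 TPM in WT and from 1.33 to 79.7 TPM in KO. Of the 9 Treg cell markers 5 rose in each genotype, Foxp3 among them, and 3 did so without KO replicate 4 or 5 with beads (KO) or without any of 6 WT libraries (WT; all but replicate 3 without beads). In WT, 2 of 6 markers of CD8 T and NK cells and 1 of 7 erythroid and stromal markers were called lower. Over all genes 6.63% were called lower in WT. The median differences of these marker lists were -0.77 and -0.53, beside -0.44 over all genes. Pecam1 fell from 39.4 to 11.3 TPM, Klrb1c from 22.3 to 6.43 TPM and Cd8a from 4.91 to 0.99 TPM. Klrb1c, Cd8a or both were not called without WT replicate 1 or 2 without beads or any WT bead library. Neither was called under median-ratio scaling. At the same threshold 0 of the 6 B cell and 7 myeloid markers tested were called in WT (limma, with 0 and 1 at an unadjusted p under 0.05). In KO 0 of these 26 markers were called, with 3 at an unadjusted p under 0.05, all erythroid or stromal. With beads 2 of those 3 were lower and 1 was higher, by 1.64. The part of a change in other cells in the results for the network was not tested.

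The genes whose libraries varied most like Myc were sought among 4369 named genes that average 20 TPM or more in some group, by Pearson's r of the deviations from the group means on the log2(TPM + 1) scale over 15 libraries. They were Ranbp3 (r = 0.968), Rhoa (0.942), Psmd3 (0.914), Mrpl40 (0.907) and Prdx5 (0.898). All values of a library share its scaling, and the part of that in these correlations was not tested. Among the other members r with Myc was highest for Mlx (0.724) and Mxi1 (0.587) and lowest for Mnt (-0.453). Ranbp3, a cofactor of nuclear export, averaged 14.0 TPM in WT and 7.79 TPM in KO without beads and 28.7 and 28.6 TPM with beads.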

How the data were processed

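Each library has 1 deposited table of Ensembl gene identifiers and values that, per the labels, the authors computed as TPM. TPM carry no information on depth, which is therefore unknown, and count models were not used. STAR, Salmon, DESeq2 and mm10 are named in the submitters' processing notes, without versions or roles. Of the 36904 genes listed without beads and the 31785 listed with beads, the 30949 common ones were used (listed TPM sum to 819697 to 938139 per library). Symbols and coordinates came from GENCODE vM21, promoters from RefSeq on GRCm38.p6.

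The 29989 genes that reached 1 TPM in 2 or more libraries were fitted as log2(TPM + 1) in limma 3.58.1 (R 4.3.3), with 1 mean for each of 4 groups, a variance trend and 11 residual degrees of freedom. The 5 comparisons were contrasts of those means, adjusted by Benjamini-Hochberg over all genes, with an adjusted p under 0.05 called; every adjusted p is from limma. A fold change on this scale understates that of low genes. Single genes were also compared by exact two-sided permutation over libraries, and the fit was tested on simulated data. No pair of libraries was identical. Alternatives were other pseudocounts (0.1 and 5), other filters (none, or 5 TPM), median-ratio scaling, scaling to 893 genes that average 50 TPM or more in each group, only the groups compared, no unnumbered libraries, a replicate block, and each library left out in turn. Rescaling after leaving out the 55 abundant predicted genes was added after seeing the data.

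The members and gene lists were chosen with earlier results of these data known. All 8 members are given in every library; from each other list up to 4 called genes with the smallest p are named, or 2 where none was called, and for marker lists those at the highest mean; for Myc, the 5 genes most like it. Of the lists, Cdkn1c, Cebpa and Lyz2 could not be tested. A called gene of the list on MYC stability is not reported here.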

Additional observations from a re-analysis of the deposited data

Results flagged for a closer look

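Of 16 sets of 4 or 6 libraries examined for a library that stands apart (8 genes in WT and in KO without beads), 1 did: Mlx in the unnumbered KO library without beads, at 37.1 TPM where the next highest KO library had 18.8 TPM. Chance alone gives such a library in about 1 of 20 groups. That library also had the highest Myc, Max, Mxd1 and Mxd4 of the 6 KO libraries, at 7.85, 13.5, 8.07 and 16.9 TPM, and its scale factor over abundant genes was 1.07 beside 0.696 to 1.11 in the KO group.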

How the results depend on the processing

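The rise of Myc in both genotypes and the fall of Mxd4 in WT were called under every alternative fitted, with differences of 3.93 to 5.17 and 4.03 to 5.20 for Myc and -2.40 to -1.54 for Mxd4. Of the 40 differences of members between groups, 17 changed sign under some alternative, and none of those had been called. In WT 2 members were called with beads, and 5 under median-ratio scaling (Myc, Max, Mxd1, Mxd4 and Mlx). In KO 3 were called, and 1, Myc, under scaling to abundant genes, with only the groups compared, with the replicate block and after rescaling without predicted genes; leaving out 1 library gave 1 to 4 in KO and 2 to 3 in WT. For MYC-activated targets called higher, leaving out 1 library gave 28 to 46 in KO and 39 to 48 in WT. The difference between bead responses of Myc, 0.29, was -0.16 under median-ratio scaling and -0.12 under scaling to abundant genes, and ranged from 0.08 to 0.53 with 1 library left out. The difference of Mxd4 in KO with beads ranged from -1.01 to 0.02 with 1 library left out (0.01999 without KO replicate 5 with beads). The cause was not tested. Scalings moved the median of all genes from -0.44 to -0.14 for beads in WT (median ratio), from -0.23 to -0.45 for beads in KO, from -0.11 to 0.12 for KO minus WT without beads and from 0.27 to -0.05 for the difference of responses (abundant genes). Libraries with the same title number did not deviate together (8 pairs, correlations of -0.04 to 0.05), so the numbers were not used to pair samples in the main fit. The deviations were taken from means of few libraries, so this check cannot exclude pairing. With the number as a block and no unnumbered libraries, 2350 genes in WT and 933 in KO were called with beads, where the same libraries gave 3385 and 2680 without the block (3366 and 2431 with the unnumbered ones). Over all genes, calls for KO minus WT without beads ranged from 1 (replicate block) to 67 (without the unnumbered KO library) beside 22, and calls with beads in KO fell from 2431 to 616 and 382 without bead replicates 4 and 5; in WT they fell from 3366 to between 1654 and 1862 without 1 bead library. TPM keep no depth, so differences of genes near 0 TPM, such as Mycn, cannot be resolved.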
